A study of Mus musculus with 4 samples.

Results

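The heat shock chaperone genes described here are 10 of the 31055 genes in the count files, matched by gene symbol. Hspa1a, Hspa1b, Dnajb1, Hsph1, Hspb1 and Hsp90aa1 form the 6 inducible genes, and Hspa8, Hsp90ab1, Hspd1 and Hspe1 the 4 constitutive genes, a division taken from textbook knowledge and not from these values. UMIs of each gene were compared across cell classes, across libraries and between genotypes. The libraries came from the hippocampi of male mice aged 3 months on a C57BL/6J background: 2 WT mice and 2 Dp(10)2Yey littermates, which are hemizygous for a duplication of the mouse chromosome 10 region that matches part of human chromosome 21. Each mouse gave 1 library, and the replicate numbers 1 and 2 are those of the labels. All 4 hippocampi were dissociated with warm enzymes before droplet capture, so no library is free of that treatment. The mice were processed on 2 consecutive days with 1 mouse of each genotype per day, and the sources used here do not state which numbers share a day. None of the 10 genes lies on chromosome 10, where the duplication is.

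Heat shock chaperones bind unfolded proteins and help them fold, or hold them until they are refolded or degraded. HSP70 proteins (Hspa1a, Hspa1b, Hspa8) work in cycles of ATP hydrolysis that are started by J-domain proteins such as DNAJB1 and reset by HSP110 proteins such as HSPH1, while HSP90 proteins (Hsp90aa1, Hsp90ab1) act later on kinases and receptors. HSPB1 is a small heat shock protein that holds clients without ATP, and HSPD1 with its lid HSPE1 forms the folding chamber of the mitochondrial matrix. Heat, proteotoxic stress and the handling of tissue release the transcription factor HSF1, which binds inverted repeats of the letters GAA, the heat shock elements, at the inducible genes.

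The sequences upstream of the genes are shown first because these elements are the sites that HSF1 binds. RefSeq promoter windows of 300 bases on GRCm38.p6, from 250 bases before to 50 after the start, were found for 7 of the 10 genes, with none for Hspa8, Hsp90aa1 or Hsp90ab1. Each window was searched for GAANNTTC and TTCNNGAA, both of which read the same on either strand and can overlap each other. One or the other was present in 15.1% of all 32851 windows, and a run of 3 alternating units (GAANNTTCNNGAA or TTCNNGAANNTTC) in 0.603%. Stretches with matches are printed 5′ to 3′ on the strand of the gene, with the matches in capitals:
Hspa1a: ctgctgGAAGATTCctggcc
Hspa1b: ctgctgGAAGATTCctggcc
Hsph1: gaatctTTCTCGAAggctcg
Hspb1: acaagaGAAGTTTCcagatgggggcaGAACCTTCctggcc
Hspe1: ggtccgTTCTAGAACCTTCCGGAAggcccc
Hspd1: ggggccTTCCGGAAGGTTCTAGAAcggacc
They lie at chr17:34972247-34972266 (Hspa1a) and chr17:34959329-34959348 (Hspa1b) on the minus strand, at chr5:149636356-149636375 on the minus strand (Hsph1) and at chr5:135887796-135887835 on the plus strand (Hspb1). Hspe1, on the plus strand, and Hspd1, on the minus strand, share chr1:55088053-55088082.

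The Hspa1a and Hspa1b stretches were the same 20 bases, and the 2 windows were identical at 296 of 300 positions. Hspe1 and Hspd1 shared a single stretch, read in opposite directions, because the 2 genes lie head to head on chromosome 1. That stretch held 2 overlapping runs of 3 alternating units and lay from -95 to -66 of the Hspe1 start. The Hspd1 start site listed first had no match in its own window. Hsph1 also had a run of 3 units, TTCTGGAAAGTTC, from 36 to 48 bases after its first start. Neither of the 2 Dnajb1 windows held a match, which says only that these letters are not in those 300 bases. Matches thus occurred in windows of inducible and of constitutive genes.

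The 4 libraries held 1015 (WT 1), 1681 (WT 2), 1349 (Dp(10)2Yey 1) and 2204 (Dp(10)2Yey 2) cells after filtering, with 2955947, 6748286, 5011426 and 8890021 UMIs. WT 1 was the shallowest, with a median of 2117 UMIs per cell against 3388 to 3703 in the others. Of the 6241 distinct barcodes of these cells, 8 occurred in more than 1 library. Cells were clustered without the 10 genes, so that none of them decided its own class. The lists of cytosolic co-chaperones and HSF1 targets, other HSP70 and HSP110 genes, DNAJ genes and small heat shock proteins were also left out. The other lists described further on were not left out, apart from genes shared with those lists. These are the endoplasmic reticulum, chaperonin with prefoldin, mitochondrial, oxidative stress, and dissociation and immediate early genes. Clusters were named from fixed marker lists, and each name below stands for cells that are like that type. The 9 classes with at least 10 cells in every library were microglia (2574 cells), oligodendrocytes (970), astrocytes (887), oligodendrocyte precursors (459), neurons (435), endothelial cells (280), ependymal cells (128), choroid plexus cells (125) and border macrophages (110). Hemoglobin genes stood beside Cldn5 at the head of the endothelial cluster, where the 13 red blood cell genes summed to between 20050 and 42320 counts per 1000000 UMIs (CPM). S100a9 and S100a8, genes of neutrophils and monocytes, led the border macrophage cluster. The neuron cluster had a median of 27.8% mitochondrial UMIs.

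The inducible genes differed more between classes than the constitutive genes did. All levels are CPM of the UMIs summed over the cells of a class in a library, given as mean ± SD over the 4 libraries (n = 4). The library reads 3′ ends, so each molecule counts once whatever the length of its gene. Over the 9 classes, the highest mean exceeded the lowest 2.04-fold for Hspa8, 3.88-fold for Hspd1, 5.88-fold for Hsp90ab1 and 6.16-fold for Hspe1. Among the inducible genes it was 17.0-fold for Dnajb1 and 23.7-fold for Hsp90aa1. Hspa1a, Hspa1b, Hsph1 and Hspb1 had between 0 and 3 UMIs in at least 1 class, and no such ratio is given for them. When each class was tested against the mean of the other 8 with library as a block (edgeR quasi-likelihood test, Benjamini-Hochberg adjusted p under 0.01 over 10076 genes), 47 of the 90 tests of the 10 genes passed. Of these, 27 were higher and 20 lower in the class tested, where 23.9% of the 90684 tests over all genes were higher and 9.65% lower. The inducible genes passed in 32 of 54 tests and the constitutive genes in 15 of 36. By class, 6 of the 10 genes were higher in ependymal cells (25.2% of all genes were), 5 in microglia (35.1%), 4 in oligodendrocytes (29.6%), 3 each in endothelial cells (21.8%), border macrophages (11.9%) and oligodendrocyte precursors (28.4%), 2 in choroid plexus cells (10.9%), 1 in neurons (25.9%) and 0 in astrocytes (26.0%). Conversely, 5 were lower in endothelial cells (6.36%), 4 each in astrocytes (8.26%) and border macrophages (3.59%), 3 in oligodendrocyte precursors (8.92%), 2 each in microglia (14.4%) and neurons (9.76%), and 0 in ependymal cells (8.80%), oligodendrocytes (12.8%) and choroid plexus cells (14.0%). For Hspb1, which had almost no UMIs in 5 classes, the fit gave no usable error in several of them. As the classes were built from the same cells, these p-values measure only whether a class differs by more than the spread between these 4 libraries.

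**Figure D1:**
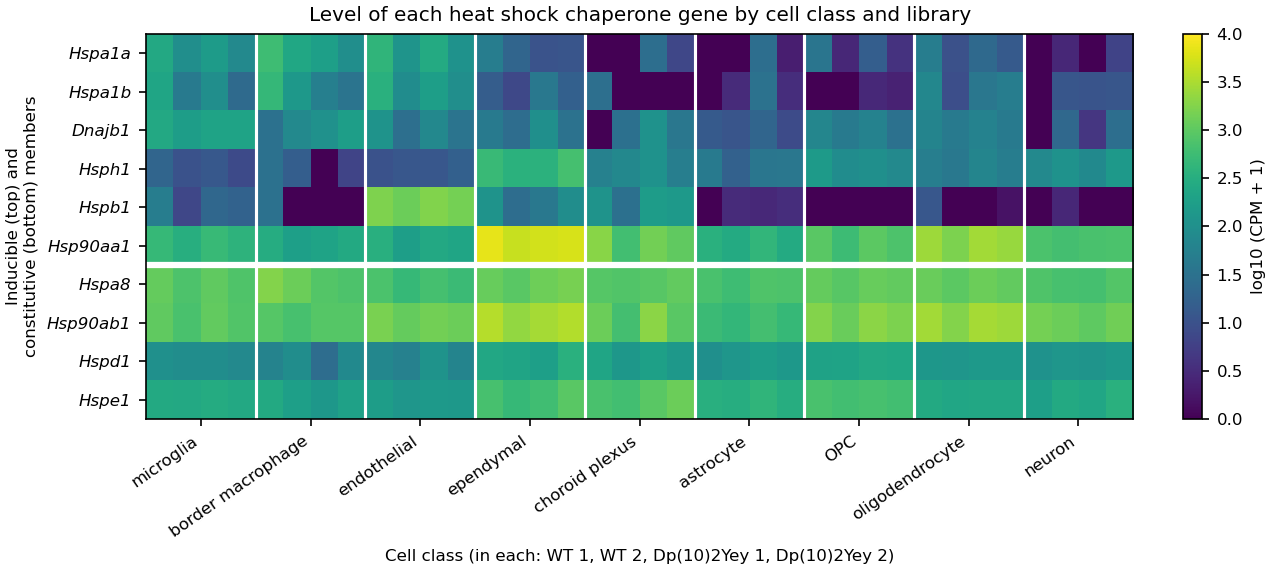
Levels of the 10 genes as log10 (CPM + 1), with genes in rows (6 inducible above, 4 constitutive below the white line) and 4 libraries in each of 9 cell classes in columns. The row of Hspa8 is the most even across classes, whereas Hspa1a and Hspa1b are high in microglia, border macrophages and endothelial cells, Hspb1 in endothelial cells, and Hsph1 and Hsp90aa1 in ependymal cells.

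Hspa1a and Hspa1b encode the stress-inducible HSP70 proteins, and their UMIs were concentrated in microglia, border macrophages and endothelial cells. Hspa1a (ENSMUSG00000091971, chr17:34969190-34972156, minus strand) reached 262 (WT 1), 93.6 (WT 2), 156 (Dp(10)2Yey 1) and 74.9 CPM (Dp(10)2Yey 2) in microglia. In endothelial cells the levels were 414 and 116 in WT and 279.7 and 109.9 CPM in Dp(10)2Yey. The lowest of these 8 values lies above every library of the 6 remaining classes, where Hspa1a did not exceed 49.4 CPM. Border macrophages had the highest mean (273 ± 210.0 CPM), from 575 CPM in WT 1 to 95.1 CPM in Dp(10)2Yey 2, but rested on 59 UMIs. These 3 classes overlapped each other, and microglia stood 6.30-fold above the next class, oligodendrocytes (23.3 ± 18.3 CPM), without overlap. Hspa1a was higher than in the other classes in microglia (adjusted p = 9.94e-35), endothelial cells (8.32e-26) and border macrophages (1.21e-14), and lower in astrocytes, neurons and oligodendrocyte precursors, with 15, 3 and 20 UMIs. Of the 15 in astrocytes, 14 came from Dp(10)2Yey 1.

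Hspa1b (ENSMUSG00000090877, chr17:34956436-34959238, minus strand) followed a similar order, with means of 175 ± 119.6 CPM in endothelial cells, 168 ± 195 CPM in border macrophages and 97.1 ± 91.5 CPM in microglia. Unlike Hspa1a, it was also higher in oligodendrocytes (41.0 ± 25.6 CPM, adjusted p = 0.00062), where the libraries ranged from 8.25 to 69.6 CPM. It had 2 UMIs in oligodendrocyte precursors and 1 in choroid plexus cells. The annotated transcripts of the 2 genes were identical at 84.3% of their aligned positions. Of all 50-base stretches of the Hspa1a transcript, 58.8% occur unchanged in that of Hspa1b. Their last 500 bases, where a 3′ library is read, shared none of 451 such stretches. Reads from further inside either transcript could still be assigned to both or neither, so the split between the genes is uncertain.

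**Figure D2:**
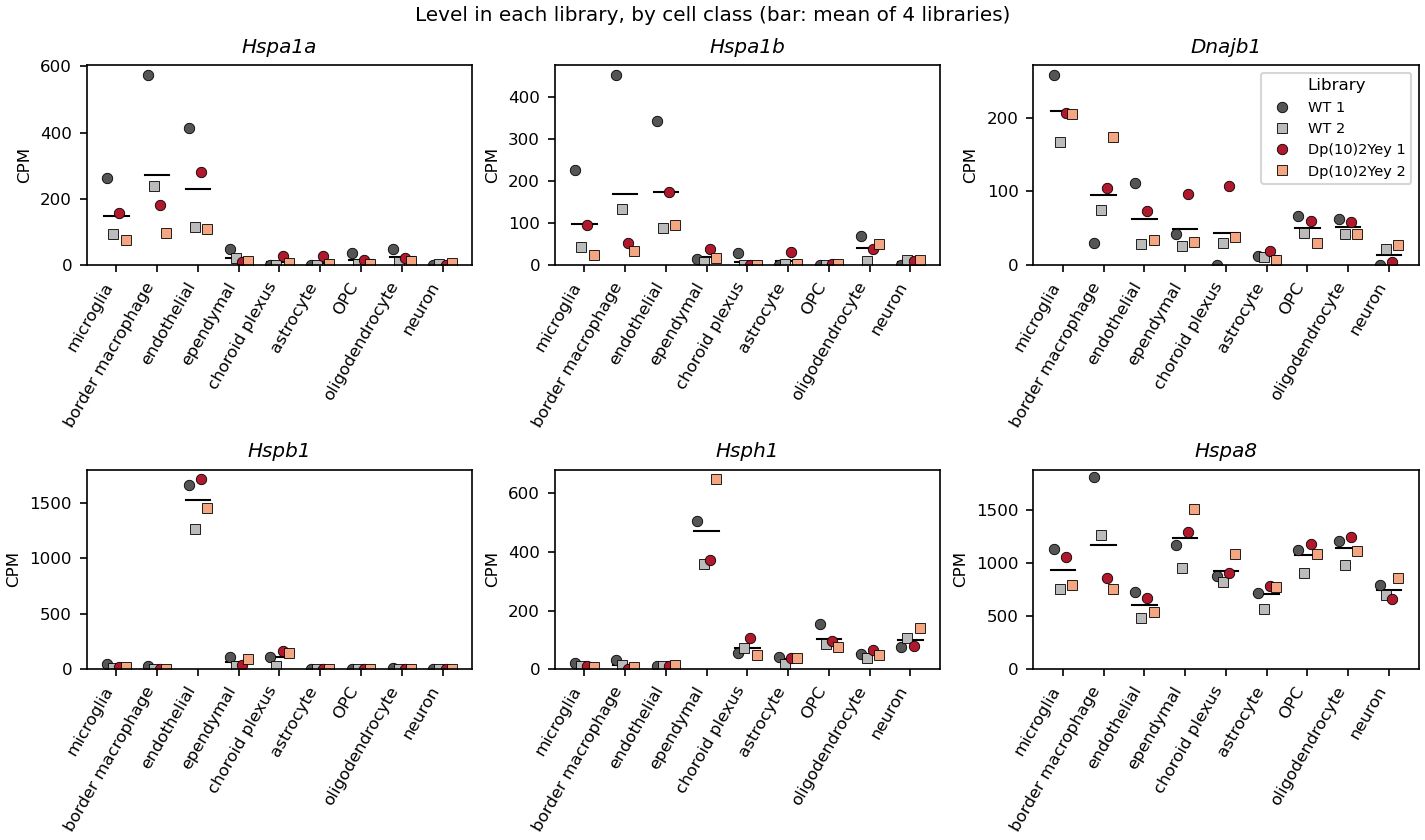
CPM of 6 genes in each library by cell class, with WT in grey, Dp(10)2Yey in red, circles for libraries numbered 1, squares for libraries numbered 2, and a bar at the mean of 4. For Hspa1a and Hspa1b in microglia and endothelial cells both circles lie above both squares, while Hspb1 and Hsph1 stand out in endothelial and ependymal cells in every library.

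Hspa8, the constitutive HSP70 gene (ENSMUSG00000015656, chr9:40800984-40810087, plus strand), was abundant in every class. Its means ran from 1232 ± 232 CPM in ependymal cells to 603 ± 113 CPM in endothelial cells, and each class overlapped its neighbour in that order. In microglia the libraries held 1128, 754, 1060 and 789 CPM (WT 1, WT 2, Dp(10)2Yey 1, Dp(10)2Yey 2). In the edgeR fit against the other classes Hspa8 was higher in oligodendrocytes (log2 fold change 0.50, SE 0.15, adjusted p = 0.0035). It was also higher in microglia (0.45, SE 0.15, adjusted p = 0.0066) and lower in endothelial cells (-0.75, SE 0.18, adjusted p = 0.00024). By mean CPM, however, microglia (933) lay below ependymal cells, border macrophages (1173), oligodendrocytes (1137) and oligodendrocyte precursors (1073). They lay above choroid plexus cells (923), neurons (750), astrocytes (711) and endothelial cells. The fitted increase in microglia thus had no match in a high class mean. The fit scales the sums with TMM factors and compares mean log levels, whereas the CPM are not scaled in that way. This holds for all class tests, and the fitted microglial value cannot be read apart from that scaling, whose part was not tested. Endothelial cells therefore had the least Hspa8 and the second highest mean of Hspa1a.

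The HSP90 genes had their highest levels in ependymal cells and oligodendrocytes. Hsp90aa1 (ENSMUSG00000021270, chr12:110690605-110702728, minus strand), the inducible cytosolic HSP90, reached 6991 and 4644 CPM in the WT and 5370 and 5704 CPM in the Dp(10)2Yey ependymal cells. No library of another class came near, since oligodendrocytes ranged from 1604 to 2760 CPM. Ependymal cells were higher than the other classes by 3.18 on the log2 scale (SE 0.13, adjusted p = 1.53e-39), and oligodendrocytes by 1.98 (SE 0.14, adjusted p = 5.58e-24). Hsp90aa1 was lower in endothelial cells, border macrophages, astrocytes and microglia, the first 3 at means of 248, 239 and 333 CPM. Hsp90ab1 (ENSMUSG00000023944, chr17:45567775-45573271, minus strand), the constitutive cytosolic HSP90, had 3056 ± 614 CPM in ependymal cells and 2517 ± 475 CPM in oligodendrocytes, which overlapped. Astrocytes, at 519.6 ± 82.6 CPM, lay below every library of border macrophages, the next class up. Both were lower than the other classes (border macrophages -0.74, SE 0.20, adjusted p = 0.0024; astrocytes -1.37, SE 0.19, adjusted p = 5.55e-10).

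The 2 genes whose proteins drive the HSP70 cycle had opposite class patterns. Dnajb1 (ENSMUSG00000005483, chr8:83608193-83612653, plus strand), a J-domain activator of HSP70, was highest in microglia, at 258 and 167 CPM in WT and 206 and 205 CPM in Dp(10)2Yey. This was 2.79 above the other classes on the log2 scale (SE 0.11, adjusted p = 2.17e-40), and border macrophages were also higher (1.68, SE 0.35, adjusted p = 6.47e-05). Astrocytes (12.3 ± 5.17 CPM) and neurons (13.02 ± 13.4 CPM) were lower. Hsph1 (ENSMUSG00000029657, chr5:149614287-149636376, minus strand), an HSP110 that exchanges the nucleotide of HSP70, was highest in ependymal cells at 506, 360, 373 and 649 CPM (WT 1, WT 2, Dp(10)2Yey 1, Dp(10)2Yey 2). That mean was 4.57-fold above oligodendrocyte precursors (103 ± 34.2 CPM) without overlap, and the test against the other classes gave an adjusted p of 1.09e-40. Neurons (100.2 ± 30.4 CPM) and oligodendrocyte precursors were higher as well. Microglia, where Dnajb1 was highest, had the lowest mean of Hsph1 (11.7 ± 5.44 CPM), within the range of endothelial cells and border macrophages.

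Hspb1 (ENSMUSG00000004951, chr5:135887919-135889563, plus strand), the small heat shock protein, was highest in endothelial cells among the 9 classes. There it held 1667 and 1269 CPM in WT and 1717 and 1454 CPM in Dp(10)2Yey, 13.7-fold above choroid plexus cells (112 ± 58.1 CPM) on average and without overlap. Its UMIs were found in 71.1% of the 280 endothelial cells. Outside the 9 classes, an unnamed cluster of 23 cells led by Mgp had them in 52.2% of its cells. Choroid plexus and ependymal cells (67.0 ± 41.7 CPM) and microglia (23.2 ± 18.0 CPM) were also higher than the other classes in the test. Oligodendrocyte precursors had 0 UMIs, which allows a level of up to 1.46 CPM, and astrocytes, oligodendrocytes, neurons and border macrophages had between 1 and 7 UMIs. In microglia 42 of 2574 cells held all 174 UMIs of the gene, with as many as 22 in a cell.

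The mitochondrial pair varied less between classes than Dnajb1 and Hsp90aa1 did, although Hspe1 had the widest range of the constitutive genes. Hspd1 (ENSMUSG00000025980, chr1:55077835-55088243, minus strand), the chaperonin, had means from 246 ± 71.1 CPM in ependymal cells and 227 ± 24.5 CPM in oligodendrocyte precursors down to 63.5 ± 27.6 CPM in border macrophages. Hspe1 (ENSMUSG00000073676, chr1:55088132-55091307, plus strand), its co-chaperonin, was highest in choroid plexus cells (884 ± 293 CPM), ependymal cells (672 ± 198 CPM) and oligodendrocyte precursors (654 ± 49.8 CPM). These 3 classes overlapped each other, and oligodendrocyte precursors lay above every library of astrocytes (342 ± 52.5 CPM). Both genes were higher in ependymal cells and oligodendrocyte precursors (Hspd1 adjusted p = 4.54e-08 and 0.0021; Hspe1 1.28e-08 and 9.41e-05). Endothelial cells were lower for both (adjusted p = 1.25e-05 for Hspd1 and 4.41e-11 for Hspe1), and border macrophages for Hspe1 (0.0014).

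Set against each other as a share of the UMIs of all 10 genes, the inducible genes made up 54.9% ± 3.01 in ependymal cells and 50.7% ± 2.22 in endothelial cells. In contrast, they made up 18.6% ± 2.22 in astrocytes and 21.1% ± 2.40 in oligodendrocyte precursors (SD, n = 4). The 2 highest classes reached their share through different genes. Without Hsp90aa1 among the inducible genes, the share fell to 5.40% in ependymal cells but stayed at 45.1% in endothelial cells, where Hspb1 had the highest mean of the 10 genes. Microglia and border macrophages had intermediate shares of 28.6% ± 3.35 and 25.0% ± 4.66.

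Within the HSP70 genes, Hspa1a and Hspa1b together gave 37.2% ± 10.9 of the UMIs in endothelial cells, 23.7% ± 9.04 in border macrophages and 18.95% ± 8.22 in microglia. In endothelial cells the libraries were at 51.1% (WT 1), 29.8% (WT 2), 40.5% (Dp(10)2Yey 1) and 27.5% (Dp(10)2Yey 2). The 6 remaining classes had means between 1.26% and 5.12%, so that nearly all HSP70 UMIs there came from Hspa8. Within the HSP90 genes the order was different. Hsp90aa1 gave 65.1% ± 2.31 of the UMIs in ependymal cells, 51.1% ± 8.34 in choroid plexus cells and 48.1% ± 1.06 in oligodendrocytes, and 15.4% ± 1.70 in endothelial cells. Inducible HSP70 and inducible HSP90 genes were therefore most abundant, relative to their constitutive partners, in different classes.

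**Figure D3:**
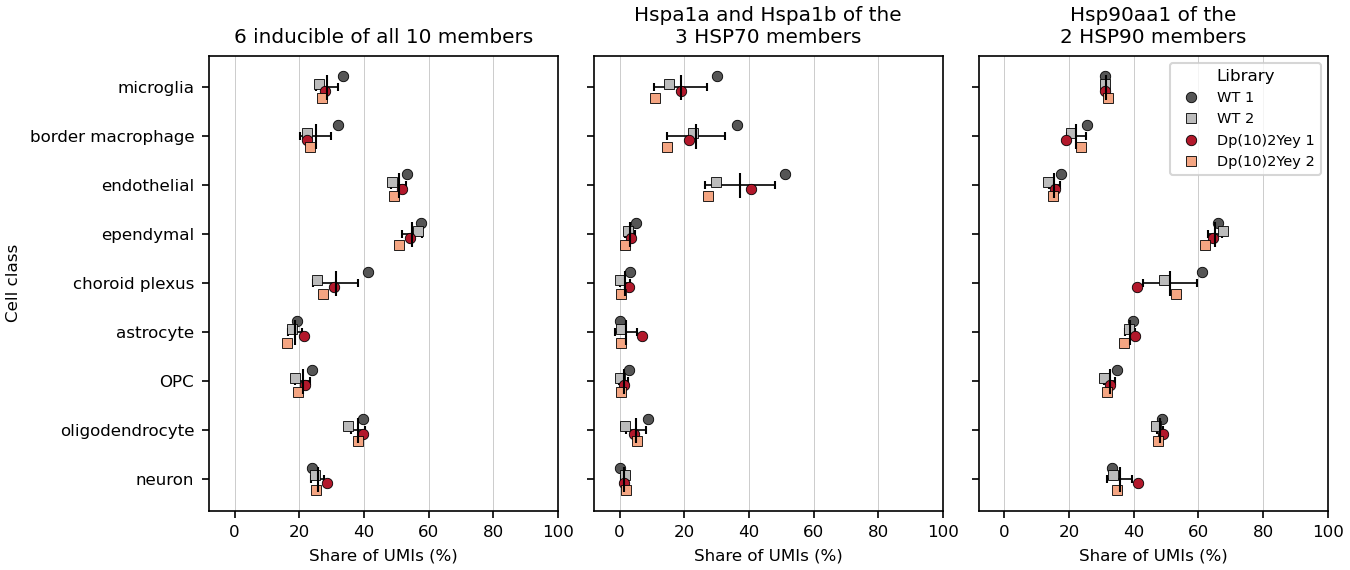
Share of UMIs (percent) from inducible genes in each cell class: all 10 genes (left), the HSP70 genes (middle) and the HSP90 genes (right). Points are libraries, the vertical tick is the mean and the bar its SD (n = 4), and endothelial cells lie at the right in the middle panel and at the left in the right panel.

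Hspa1a or Hspa1b UMIs were found in a minority of the cells of every class. Without thinning they were present in 19.2% of 2574 microglia (median 3601 UMIs per cell), 25.7% of 280 endothelial cells (2110 UMIs) and 22 of 110 border macrophages (1911 UMIs). Oligodendrocyte precursors, with a deeper median of 4462 UMIs, had 3.70%, and neurons (1763 UMIs) and astrocytes (1618 UMIs) had 3.22% and 1.01%. Ependymal cells (2208.5 UMIs) and oligodendrocytes (4969 UMIs) lay nearer to microglia, at 17.2% and 15.8%, and choroid plexus cells (1461 UMIs) were at 2.40%. The ependymal cells were uneven, since 60 of the 128 came from WT 1 with a median of 1085 UMIs and a share of 8.33%, while the other libraries had medians of 4139.5 to 9686.5 UMIs and shares of 18.8% to 27.8%. When cells were thinned to 1000 UMIs each, microglia were at 10.8% (95% exact interval 9.51 to 12.2%, 443 cells left out as shallower), endothelial cells at 19.7% (14.4 to 25.9%, 82 left out) and border macrophages at 15.9% (8.72 to 25.6%, 28 left out). Oligodendrocyte precursors were at 2.05% (0.887 to 3.99%, 68 left out) and oligodendrocytes at 4.88% (3.58 to 6.47%, 47 left out), both below the intervals of all 3. Ependymal cells were at 3.19% with an interval of 0.663 to 9.04% (34 left out), which overlaps that of border macrophages. The cells of the 4 libraries are pooled here, and the intervals cover counting error only, not the spread between mice. The 32 barcodes set aside as red blood cells, which should not transcribe these genes, had a UMI in 15.6% before thinning (median 3510 UMIs) and in 0 of 22 after it, which allows up to 15.4% (exact interval). That upper bound lies above the microglial share, so at 32 barcodes the reference does not separate them. Hspa8 had the opposite order, at 53.4% of thinned microglia (51.3 to 55.5%) and 62.4% of thinned oligodendrocyte precursors (57.4 to 67.2%).

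Within microglia, the 10% of cells with the most UMIs of a gene held 86.1% of the UMIs of Hspa1a and 70.1% of those of Dnajb1. For Hspd1, which had fewer UMIs in microglia than Hspa1a (771 against 1103), they held 58.8%. They held 42.3% for Hsp90aa1, 41.0% for Hspe1, 35.1% for Hspa8 and 34.5% for Hsp90ab1, so the inducible and constitutive genes were not separated by this measure. It depends on how many cells hold a UMI, and it is not given for Hspa1b, Hsph1 and Hspb1, which fewer than 10% of microglia held. In the 2131 thinned microglia, Hspa1b was found in 14.0% of the 178 cells with an Hspa1a UMI and in 2.66% of the rest.

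Microglia fell into 3 clusters that differed in these genes. The largest (1465 cells, led by Nfkbiz, Il1a and Atf3, genes of inflammatory and stress signaling) had 262 ± 58.2 CPM of Dnajb1 and 42.6 ± 46.3 CPM of Hspa1b. A second cluster of 541 cells, with P2ry12 and Tmem119, markers of resting microglia, among its leading genes, was led by Hspa1b although the gene took no part in the clustering. Its Hspa1b levels were 798 (WT 1), 189.7 (WT 2), 337 (Dp(10)2Yey 1) and 66.9 CPM (Dp(10)2Yey 2), against 86.5 ± 12.6 CPM of Dnajb1. The third cluster (568 cells, led by Tyrobp) had a median of 799 UMIs per cell and between 2 and 6 UMIs each of Hspa1a, Hspa1b, Dnajb1, Hsph1 and Hspb1. Its inducible share was 11.2% ± 0.901, and Hspa8 was still at 441 ± 147 CPM. Summed dissociation and immediate early genes, which include Fos and Jun, reached 54360 to 63590 CPM in the first cluster, 15880 to 31800 CPM in the second and 657 to 943 CPM in the third. Their part in the difference between the clusters was not tested.

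The libraries numbered 1 had more of the heat shock chaperone UMIs than those numbered 2 in several classes. The share of the 10 genes in all UMIs was higher in number 1 than in number 2 of each genotype in 6 of 9 classes, the exceptions being neurons, ependymal cells and border macrophages, where Dp(10)2Yey 1 lay below Dp(10)2Yey 2 (0.281% and 0.362%, 1.093% and 1.277%, and 0.2449% and 0.2466%). In microglia the 10 genes made up 0.385% (WT 1) and 0.351% (Dp(10)2Yey 1) of all UMIs in the libraries numbered 1, and 0.246% (WT 2) and 0.267% (Dp(10)2Yey 2) in those numbered 2. Each of the 10 genes had both libraries numbered 1 above both numbered 2 in microglia, as did 18.1% of all genes with at least 10 UMIs. Over the 9 classes this held for 41 of 80 tests of the 10 genes and for 15.5% of all tests, and the reverse order for 7 of 80 and 22.1%. It was found in 9 of 10 genes in endothelial cells (15.5% of all genes there), 7 of 8 in oligodendrocyte precursors (20.3%) and 6 of 9 in oligodendrocytes (20.8%). It was found in 4 of 9 in astrocytes (14.6%), 3 of 8 in choroid plexus cells (12.6%), 1 of 8 in border macrophages (15.2%) and 1 of 10 in ependymal cells (12.2%). In neurons it held for 0 of 8 genes (5.75%), with the reverse order in 5 of 8 (37.1% of all genes there). Neurons of the libraries numbered 1 had median mitochondrial shares of 29.98% (WT 1) and 33.86% (Dp(10)2Yey 1) against 25.14% and 17.95% in those numbered 2, median UMIs of 1203.5 and 1553.5 against 2092 and 1977, and 34 neuron markers at 22800 and 16220 CPM against 28090 and 32080 CPM. Their part in the order was not tested. Markers of other cell types divided by number in several of the other classes, in either direction, and only examples are given. In ependymal cells the 26 oligodendrocyte markers were at 1139 and 1149 CPM in libraries numbered 1 and 2537 and 2554 CPM in those numbered 2. In border macrophages they were at 1543 and 1173 CPM against 8419 and 5384 CPM. In microglia the 26 oligodendrocyte precursor markers were at 90.6 and 86.5 CPM against 73.8 and 72.1 CPM. In oligodendrocytes the 28 microglia markers were at 432 and 325 CPM in libraries numbered 1 and 1220 and 1617 CPM in those numbered 2. In oligodendrocyte precursors the 26 oligodendrocyte markers were at 4560 and 5004 CPM against 7622 and 8537 CPM. The part of these markers was not tested either.

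The ratio of mean CPM in libraries numbered 1 over those numbered 2 had its highest medians in the inducible HSP70 genes. In the 4 classes with at least 30 UMIs it ranged from 2.28 to 3.31 for Hspa1a and from 1.88 to 4.83 for Hspa1b, the highest in microglia. Part of this rested on WT 1. Without that library the Hspa1a ratio was 1.10 in border macrophages, 1.85 in microglia, 2.48 in endothelial cells and 2.04 in oligodendrocytes. In border macrophages it was 3.98 without WT 2 and 3.46 without Dp(10)2Yey 1. The Hspa1b ratio was then 2.86 in microglia, 1.91 in endothelial cells and 1.32 in oligodendrocytes, and it turned to 0.624 in border macrophages. Those 32 border macrophage UMIs gave 7.54 without WT 2, 5.43 without Dp(10)2Yey 1 and 1.89 without Dp(10)2Yey 2. The oligodendrocyte ratio of Hspa1b was 1.10 without WT 2 and 6.49 without Dp(10)2Yey 2, and the gene was lower in Dp(10)2Yey 1 than in Dp(10)2Yey 2. With all libraries, in the same 4 classes, the ratio ranged from 1.17 to 1.42 for Hspa8. Single classes were also high for Dnajb1 (2.96 in endothelial cells) and Hspb1 (2.98 in microglia). Over all classes with 30 UMIs the median was 1.16 for Hspa8, 1.08 for Hspe1 and 1.03 for Hspd1. Hsp90aa1 and Hsp90ab1 lay between, with medians of 1.36 and 1.26. The order held inside microglial clusters too, for 8 of 10 genes in the largest (19% of all genes) and 6 of 9 in the cluster led by Hspa1b (19.6%), both including Hspa1a and Hspa1b. In the cluster led by Tyrobp it held for 1 of 5 genes (14.1%). That cluster, which had few inducible UMIs, made up 27.8% and 27.3% of the microglia in the libraries numbered 1 and 18.9% in both numbered 2.

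In microglia, depth and the dissociation genes divided the libraries in the opposite direction. The cells had medians of 2880.5 (WT 1), 3764 (WT 2), 3625 (Dp(10)2Yey 1) and 3767.5 UMIs (Dp(10)2Yey 2). Their summed dissociation and immediate early genes were at 47590 and 44820 CPM in the libraries numbered 1 and at 48870 and 52120 CPM in those numbered 2. The 28 microglia markers were at 72030 to 74340 CPM in all 4. In oligodendrocytes and their precursors the dissociation genes had the same direction as in microglia. They were at 4025 and 4897 CPM (number 1) against 6067 and 6340 CPM (number 2) in oligodendrocytes. In the precursors they were at 4779 and 5764 CPM against 5771 and 7087 CPM. In endothelial cells the dissociation genes had the same direction as the chaperones, at 16220 and 13800 CPM (number 1) and 12850 and 13510 CPM (number 2). The median UMIs of endothelial cells were 1705.5 and 2360 in the libraries numbered 1 and 2131 and 2144 in those numbered 2, which is no division by number. The part of depth, of dissociation, of the microglial clusters or of the day of preparation in the pattern was not tested, and the sources do not tie numbers to days.

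**Figure D4:**
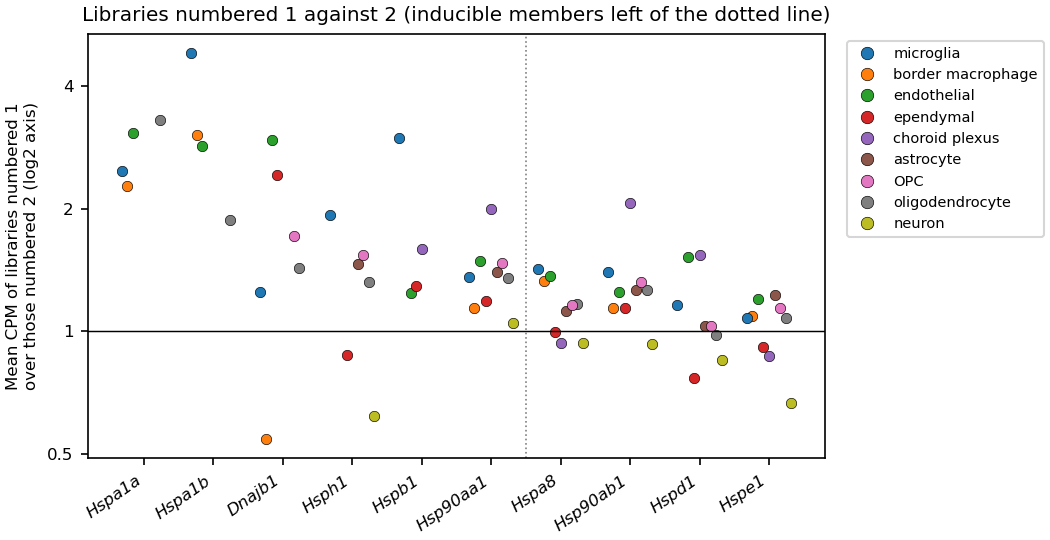
Mean CPM of the 2 libraries numbered 1 over that of the 2 numbered 2 (log2 axis) for each gene, with 1 point per cell class with at least 30 UMIs. All points of Hspa1a and Hspa1b lie at 1.88 or more, and those of Hspe1 lie between 0.665 and 1.23.

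The study asked how the duplication changes hippocampal cells, and no heat shock chaperone gene passed the test between genotypes. In the sums of all cells 0 of the 10 genes had an adjusted p under 0.01 (edgeR quasi-likelihood test, 0% of 13807 genes did so), and 0 had an unadjusted p under 0.05 (2.72% of all genes). The largest differences were those of Hspa1b (-0.98, SE 0.69) and Hspa1a (-0.74, SE 0.53, log2 Dp(10)2Yey over WT). The constitutive genes had differences between 0.08 and 0.16, with SE from 0.13 to 0.19. By class, 0 of 63 tests passed (0.0215% of all tests did), and 4 had an unadjusted p under 0.05 (3.43% of all tests): Hspa1a and Hspa1b in microglia (3.15% of all genes there), Hspa1a in border macrophages (4.49%) and Hspe1 in choroid plexus cells (3.51%). DESeq2 also called 0 in both comparisons. Each library is 1 mouse, so these p-values rest on the spread between 2 mice per genotype, for which an exact two-sided permutation test cannot go below 0.33.

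Of the 4 tests with an unadjusted p under 0.05, the fitted value was negative for Hspa1a and Hspa1b in microglia and Hspa1a in border macrophages, and positive for Hspe1 in choroid plexus cells (0.63, SE 0.24, adjusted p = 0.925). Microglial Hspa1b stood at 227 and 43.7 CPM in WT and at 95.2 and 22.9 CPM in Dp(10)2Yey, so that the genotypes overlapped (log2 fold change -1.23, SE 0.48, adjusted p = 0.999). Hspa1a in microglia differed by -0.63 (SE 0.30, adjusted p = 0.999). Without WT 1 both differences changed sign, to 0.29 for Hspa1b and 0.23 for Hspa1a, and without WT 2 or Dp(10)2Yey 1 both passed the threshold, at -2.06 and -2.46 for Hspa1b. In each of these fits 1 genotype has a single library, which is assumed to vary like the others. In border macrophages Hspa1a was at 575 and 238 CPM in WT and at 182 and 95.1 CPM in Dp(10)2Yey, without overlap (-1.62, SE 0.57, adjusted p = 0.505, 59 UMIs), in a class where 0.983% of all genes passed. The same arrangement, both WT libraries above both Dp(10)2Yey libraries, was found in 14.0% of all genes of that class. It held for 3 of the 8 genes there, Hspa1a, Hspa1b and the constitutive Hspa8 (1815 and 1262 CPM in WT, 859.8 and 755 CPM in Dp(10)2Yey). The make-up of this class moved with genotype: its 16 neutrophil and monocyte markers summed to 332.8 and 519.7 CPM in WT and to 50290 and 14880 CPM in Dp(10)2Yey. The 18 border macrophage markers were at 33430 CPM in Dp(10)2Yey 1 and at 65330 to 69220 CPM in the others. Their part in the Hspa1a difference was not tested. Over all classes both WT libraries lay above both Dp(10)2Yey libraries in 4 of 80 tests of the 10 genes (14.4% of all tests), and the opposite one for 13 of 80 (16.4%).

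For Hspa1b the genotype difference itself varied between classes (interaction F test in edgeR, adjusted p = 2.93e-05), and 0.308% of the 10076 genes passed that test. It was the only one of the 10 genes to pass, with Hspa1a at an adjusted p of 0.709. Of the 23 dissociation and immediate early genes 3 passed as well, Atf3 (adjusted p = 8.1e-06), Egr1 (9.92e-05) and Junb (0.00748), picked out after their values were seen. Their part in the Hspa1b result was not tested. In oligodendrocytes Hspa1b was at 69.6 and 8.25 CPM in WT and at 37.5 and 48.7 CPM in Dp(10)2Yey (log2 fold change 0.64, SE 0.55), the opposite sign to microglia. The oligodendrocyte value was small in DESeq2 (0.18), -0.66 without WT 2 and 2.37 without WT 1, and the ratio of mean CPM was 1.11. In border macrophages Hspa1b was at 453.9 and 133.6 CPM in WT and at 52.1 and 33.6 CPM in Dp(10)2Yey (32 UMIs). In astrocytes 16 of its 19 UMIs came from Dp(10)2Yey 1. The interaction did not pass without WT 1 or without Dp(10)2Yey 2, when 0 of the 10 genes were called.

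**Figure D5:**
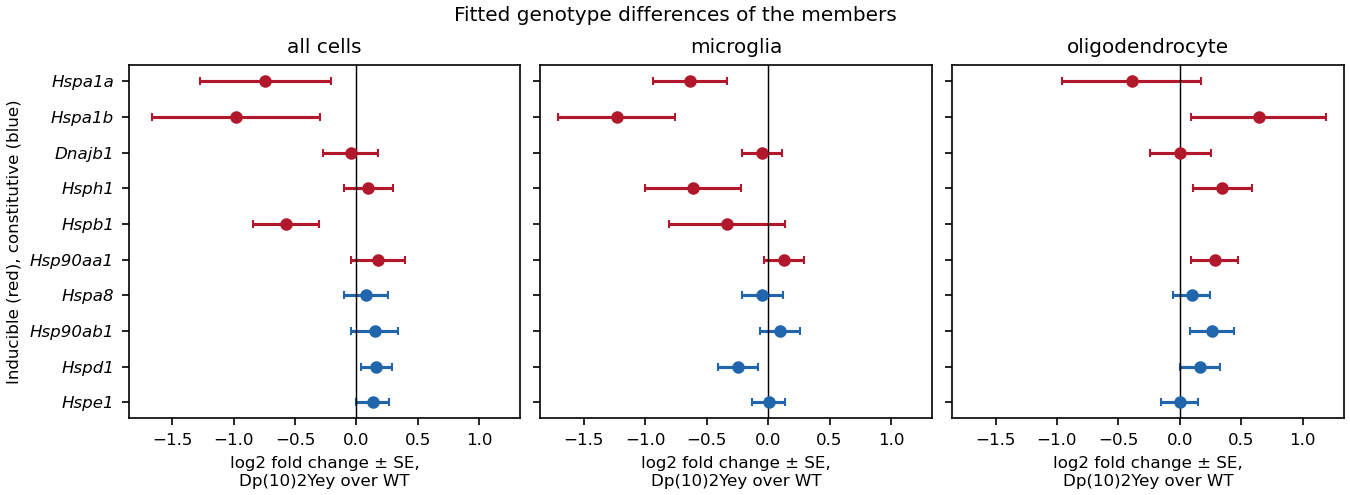
Fitted log2 fold change of Dp(10)2Yey over WT with its SE for each gene in all cells, microglia and oligodendrocytes (red, inducible; blue, constitutive). Genes not tested in a panel have no point, none of the values passed the threshold, and Hspa1b lies at -1.23 in microglia and 0.64 in oligodendrocytes.

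Other chaperone genes were counted in lists chosen alongside the 10 genes, and no gene of any list passed the test between genotypes within a class or in all cells. Shares in parentheses are those of all genes called in that direction in the class. In ependymal cells 11 of 22 cytosolic co-chaperones and HSF1 targets were higher (25.2%) and 1 lower (8.80%, median log2 fold change 0.70, all genes 0.09), as were 5 of 8 further HSP70 and HSP110 genes (median 0.94) with 0 lower. Among these, Hspa2 was at 595 CPM in ependymal cells and 4.20 CPM in microglia, and Hspa4l, an HSP110 gene, at 426 and 5.06 CPM. In microglia 17 of 19 endoplasmic reticulum chaperones and unfolded protein response genes were higher (35.1%) and 0 lower (median 1.33, all genes 0.11). Hspa5, the HSP70 of the endoplasmic reticulum, was at 785 CPM in microglia and 134 CPM in neurons. Neurons had 0 of these 19 genes higher (25.9%) and 12 lower (9.76%, median -0.74, all genes 0.13).

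Small heat shock proteins other than Hspb1 were higher in choroid plexus and ependymal cells, for 3 of 4 genes in each (10.9% and 25.2%). Cryab, a crystallin gene, was at 5060 CPM in oligodendrocytes, 1610 CPM in choroid plexus cells and 11.5 CPM in microglia. The cytosolic chaperonin TRiC with prefoldin was lower in astrocytes for 6 of 13 genes (8.26%), with 0 higher (median -0.50, all genes 0.17), and higher in oligodendrocytes for 5 of 13 (29.6%). In ependymal cells 3 of 13 were higher (25.2%) and 1 lower. Among the DNAJ genes, 8 of 20 were higher in oligodendrocytes (29.6%) and 8 in ependymal cells (25.2%). Dnaja1, a J-domain relative of Dnajb1, had its highest mean in oligodendrocyte precursors (456 CPM) and its lowest in astrocytes (175 CPM). Of the mitochondrial chaperones and proteases, 3 of 10 were higher in astrocytes (26.0%) with 0 lower, and 3 were higher (25.2%) and 1 lower in ependymal cells, shares near those of all genes. Hspa9, the mitochondrial HSP70, was highest in ependymal cells (169 CPM).

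The dissociation and immediate early genes were high in the 3 classes with the most Hspa1a. In border macrophages 23 of 23 were higher (11.9%), in microglia 22 (35.1%) and in endothelial cells 21 (21.8%), with 0 lower in each. By contrast, 21 were lower in astrocytes (8.26%), 20 in neurons (9.76%) and 15 each in choroid plexus (14.0%) and ependymal cells (8.80%). Oligodendrocyte precursors, where Hspa1a was lower, had 6 higher (28.4%) and 7 lower (8.92%), and oligodendrocytes 5 (29.6%) and 6 (12.8%). Fos, for example, was at 5219 CPM in microglia, 1741 CPM in endothelial cells, 1613 CPM in oligodendrocyte precursors, 1146 CPM in oligodendrocytes and 45.3 CPM in neurons. Of the 8 oxidative stress and metallothionein genes 5 were higher in ependymal cells (25.2%) and 4 in astrocytes (26.0%), with 1 lower in each. The metallothionein genes Mt1 and Mt2 had their highest mean in astrocytes, at 11300 and 2177 CPM.

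Likeness to Hspa1a over the 36 sums of library and class was measured by Pearson correlation of log2 (CPM + 10) among 3323 genes. Outside the 10 genes, the most alike were Klf2 (r = 0.89), Klf4 (0.87), H2-T23 (0.87), Fli1 (0.87) and Rap1b (0.862). Of the 10 genes Hspa1b was the closest, at 0.863 and so just above Rap1b. Dnajb1 followed at 0.66, while Hspa8 was at 0.11 and Hsph1 at -0.54. The genes most like Hspa8 were Ahsa1 (0.73), an activator of HSP90, the chaperonin subunits Tcp1 (0.69), Cct2 (0.59) and Cct5 (0.58), and Timp2 (0.58). These values are descriptions over sums that share libraries, depth and classes.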

How the data were processed

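For each of the 4 libraries the authors deposited raw UMI counts per gene and barcode, made with Cell Ranger 3.0.2 against a custom mm10 reference and not normalized. The 10 genes and all lists were chosen with earlier results of these data known. A minimum of 200 genes per cell was set, genes seen in 3 cells or fewer were dropped, and 32 red blood cell barcodes were set aside. Seurat 5.3.0 in R 4.3.3 integrated the libraries (2000 variable genes without the 10 genes and the chaperone lists named above as left out, 50 dimensions, resolution 0.2). A cluster took the name of a class with at least 3 markers among its 10 leading genes and more than any other class, or otherwise one whose median marker was at least 1 higher on the log2 scale while that of every other class was below 0, a rule set after the clusters were seen. Rebuilt names may differ from those of the study. Scrublet in scanpy 1.11.5 called 54 doublets (0.86% of 6249 cells), which were kept. Counts were summed per library and class and tested in edgeR 4.0.16 (TMM, filterByExpr, quasi-likelihood F test, Benjamini-Hochberg adjustment, threshold 0.01), after a check on simulated data. Levels are CPM of the summed counts. Named genes are the 10, the 4 of highest CPM in each list and the 5 outside the 10 most like Hspa1a and Hspa8 (mean CPM of at least 50). Atf3, Egr1 and Junb were named for their interaction result, and some others as leading genes of clusters. Only some of the list genes are given with values. Gene positions are from GENCODE M21 on GRCm38, the build of mm10. Alternatives were DESeq2 1.42.0, RLE size factors, no filter, a replicate block, a threshold of 0.05, removal of doublets or of cells with over 20% mitochondrial UMIs, thinned sums, chaperone genes left in the clustering, resolution 0.5, Hsp90aa1 counted as constitutive, and each library left out. A crossed replicate block, the microglial clusters taken singly and number ratios with each library left out were added after the data were seen.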

Additional observations from a re-analysis of the deposited data

Results flagged for a closer look

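Hspa1b stood out because its genotype difference varied between cell classes (edgeR interaction test, adjusted p = 2.93e-05), being negative in microglia and positive in oligodendrocytes. The oligodendrocyte value was 0.18 in DESeq2, -0.66 without WT 2 and 2.37 without WT 1. The ratio of mean CPM in Dp(10)2Yey over WT was lowest in border macrophages (0.146, on 32 UMIs) among the 4 classes with at least 30 UMIs. Atf3, Egr1 and Junb of the dissociation and immediate early genes passed the same test (adjusted p = 8.1e-06, 9.92e-05 and 0.00748). The call of Hspa1b was lost without WT 1 and without Dp(10)2Yey 2. The part of single libraries in the difference was not tested beyond these values.

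Hspd1 stood out for its level in cells outside the 9 classes. These were a cluster of 160 cells led by Igfbpl1, Neurod1 and Top2a. Its markers were shared between dividing cells and immature neurons, and it was left unnamed. There Hspd1 was at 314 CPM over the libraries together, above the mean of each of the 9 classes. The highest single library of ependymal cells, at 345 CPM, lay above that value.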

How the results depend on the processing

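The count of class tests passed by the 10 genes (47) stayed between 44 and 50 under 8 alternatives and between 40 and 48 with a library left out. Between genotypes the count in all cells went from 0 to 2 without a filter on low counts (Hspa1a and Hspa1b). The calls in all cells over all genes went from 0 to 87 in that setting. For the 10 genes the count in all cells remained 0 under the other alternatives. By class it went from 0 to 1 without the filter (microglial Hspa1b), and from 0 to 4 with a library left out, the 4 without WT 2 (Hspa1a, Hspa1b and Hspb1 in microglia and Hspa1b in endothelial cells), 1 without WT 1, 2 without Dp(10)2Yey 1 and 0 without Dp(10)2Yey 2. The calls by class over all genes rose as well, from 10 to 127 without the filter and to 56, 80, 212 and 303 without WT 2, WT 1, Dp(10)2Yey 1 and Dp(10)2Yey 2. The interaction count went from 1 to 0 without WT 1 or Dp(10)2Yey 2, a range of 0 to 1. The cause of these changes was not tested. Fitted values of single genes changed sign in 69 of 292 genotype values with a library left out and in 31 of 722 under the other alternatives (12 of 360 and 13 of 630 between classes), none of which passed the threshold before or after the change. Among them were Hspa1b and Hspa1a in microglia without WT 1 (0.29 and 0.23) and Hspa1b in oligodendrocytes without WT 2 (-0.66). With the replicate number as a block in a paired fit, 0 of the 10 genes were called in all cells and 0 of the class tests, as with the crossed replicate block. The smallest adjusted p under the block was 0.0206, for microglial Hspa1b (-1.15), against 0.9989 without it and 0.9997 with the crossed block. The numbers may not pair the mice: deviations from the group means correlated over same-numbered libraries at -0.0013 in all cells and, by class, from -0.24 in choroid plexus cells to 0.25 in oligodendrocytes, with 0.16 in microglia. Over all genes the block moved the calls by class from 10 to 34, and the crossed one to 32.

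Counting Hsp90aa1 as constitutive moved the inducible share to 2.85% in astrocytes, 16.9% in border macrophages, 5.04% in choroid plexus cells, 45.1% in endothelial cells, 5.40% in ependymal cells, 15.1% in microglia, 3.78% in neurons, 2.53% in oligodendrocytes and 3.61% in oligodendrocyte precursors. Of the microglial clusters taken singly, that led by Tyrobp had an inducible share of 11.2% and that led by Hspa1b 33.5%. The other alternatives moved no class's share by more than its SD.

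With 2 libraries per genotype, 110 to 128 cells in each of the 3 smallest classes, and 0 to 20 UMIs of Hspa1a, Hspa1b and Hspb1 in several classes, depth limits these values. Red blood cell barcodes were too few to set a background for free RNA, and empty droplets were not used here.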
